A study of Mus musculus with 4 samples.

Results

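The mitochondrial ribosomal proteins are the proteins of the ribosome inside mitochondria. They were taken as every gene whose symbol in the array platform's probe table begins with Mrpl or Mrps followed by a digit, on spots assigned to 1 gene. The rule found 63 of the 10225 genes on the array, with 93 spots. There were 41 Mrpl symbols, named for the large subunit, and 22 Mrps symbols, named for the small subunit. A further spot that named a member beside another gene was left out.

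Spinal cords were from female adult SJL/J mice, and the groups were AT-EAE mice and control mice. AT-EAE stands for the adoptive-transfer form of experimental autoimmune encephalomyelitis, an inflammatory disease of brain and cord started by injected myelin-specific T cells and used to model multiple sclerosis. Total RNA extracts came from pools of 2 cords, with 4 extracts in each group. Each of the 4 two-colour cDNA arrays held a pair of extracts from the same group, with extracts 1 and 2 on array 1 of a group and extracts 3 and 4 on array 2. The day after transfer and the disease score of the AT-EAE mice were not given in the sources used here.

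The mitochondrial ribosome makes the few proteins that mitochondrial DNA encodes, which are core subunits of the respiratory chain. All of its proteins are encoded in the nucleus, made in the cytosol and imported. Part of them descend from the ribosome of the bacterial ancestor, and the others were added during the evolution of mitochondria. Neurons and other cells of the cord depend on the respiratory chain for most of their ATP.

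A deposited value sets the normalized signal of 1 channel of an array over that of the other, on a log scale, and base 2 was assumed because the base is not given in the sources used here. The channel on top is not given either. Since both extracts of an array belonged to 1 group, a ratio measures how far a pair of AT-EAE pools, or a pair of control pools, differed, and says nothing of whether AT-EAE cord had more or less of an RNA than control cord. A spot can also lack a value, for reasons not given in the sources used here. The data therefore allow 2 descriptions of each gene, namely on which arrays it had a value and how large its ratio was there. Neither can separate fewer cells of a type from less RNA per cell.

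The arrays had 28704 spots. AT-EAE arrays 1 and 2 had values for 54.5% and 37.6% of these spots, against 73.6% and 64.7% on control arrays 1 and 2. The plain standard deviation of gene ratios was 0.23 and 0.36 on AT-EAE arrays 1 and 2, against 0.21 and 0.27 on control arrays 1 and 2, so that AT-EAE array 2 had both the fewest values and the widest ratios. Of the cell type markers chosen for cord and for cells that could mix with it, 5 neuron, 2 oligodendrocyte, 4 astrocyte, 4 microglia and macrophage, 1 T cell, 2 skeletal muscle and 2 red blood cell genes were matched to spots. Each of the neuron, oligodendrocyte and astrocyte genes had a value on both control arrays. So did both skeletal muscle and both red blood cell genes, so that having a value does not tell cord cells from cells mixed with them. Of the microglia and macrophage genes, Cd68 had no value on control array 1. The T cell gene, Cd4, had a value on none of the 4 arrays.

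Promoter sequence was available for 54 of the 63 members, in 60 windows of RefSeq on GRCm38.p6. Nuclear genes for mitochondrial proteins are known for promoters bound by nuclear respiratory factor 1 (NRF1) and by the ETS factor GABP, also called NRF2. The first 250 bases of each window, which lie upstream of the gene's start, were searched on both strands for the NRF1 core GCGCANGCG and for the ETS core CCGGAAG, neither of which contains the other. The NRF1 core stood in 12 of the 60 member windows, against 5.16% of all 32851 windows. The ETS core stood in 14, or 23.3%, of the member windows, against 6.91% of all windows. Only Mrpl17 among the members held both cores, which is 1.67% of the member windows, against 0.755% of all windows. The full set includes windows of noncoding genes and was not matched for base composition, and a match is a description of letters and not of binding.

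The upstream windows of Mrpl50 and Mrpl39 are shown because these genes had the lowest ratios of all members, described further on. Both lie on the minus strand of GRCm38.p6 and are written 5′ to 3′ on the strand of the gene, at chr4:49521084-49521333 for Mrpl50 and chr16:84735245-84735494 for Mrpl39. Capitals mark the NRF1 core, whose overlapping matches on both strands in Mrpl39 run from 125 to 116 bases upstream of the start. Neither core was found in the Mrpl50 window.
Mrpl50: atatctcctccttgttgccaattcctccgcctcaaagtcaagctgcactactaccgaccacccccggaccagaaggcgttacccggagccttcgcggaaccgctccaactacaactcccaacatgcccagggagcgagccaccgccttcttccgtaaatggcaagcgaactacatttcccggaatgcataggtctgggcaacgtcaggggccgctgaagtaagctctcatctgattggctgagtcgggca
Mrpl39: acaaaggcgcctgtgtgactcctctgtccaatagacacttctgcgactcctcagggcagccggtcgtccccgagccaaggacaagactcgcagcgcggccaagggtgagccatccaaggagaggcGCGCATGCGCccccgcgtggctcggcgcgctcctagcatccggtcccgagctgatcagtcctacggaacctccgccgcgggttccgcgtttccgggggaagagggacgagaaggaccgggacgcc

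The first question was on which arrays the members had values. Fewer members were measured on the AT-EAE arrays than on the control arrays. Of the 63 genes, 48 were measured on array 1 and 36 on array 2 of AT-EAE, against 60 on control array 1 and 57 on control array 2. These were 76.2% and 57.1% in AT-EAE, against 95.2% and 90.5% in control, with no overlap between the groups. Averaged over arrays, the share was 66.7% ± 13.5 in AT-EAE and 92.9% ± 3.37 in control (SD, n = 2 arrays each). Over all 10225 genes it was 63.6% ± 12.3 in AT-EAE and 83.2% ± 4.36 in control (SD, n = 2 arrays each). The groups did not overlap over all genes either, with 72.4% and 54.9% in AT-EAE, against 86.2% and 80.1% in control. The members were thus closer to all genes in AT-EAE than in control, while the mean share in AT-EAE fell by 26.2 percentage points for members and fell by 19.5 for all genes.

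Genes of related function differed in this. Cytosolic ribosomal proteins, which build the ribosome of the cytosol, had values for 98.4% and 93.7% of 63 genes on AT-EAE arrays 1 and 2, against 100% on both control arrays. Subunits of the respiratory chain had values for 91.3% and 88.4% of 69 genes in AT-EAE, against 95.7% and 94.2% in control. In AT-EAE the mean over arrays fell by 3.97 percentage points for cytosolic ribosomal proteins and fell by 5.07 for the respiratory chain. The difference between these lists and the mitochondrial ribosomal proteins was not tested. The lists also differ in spots per gene, with 1.48 for mitochondrial ribosomal proteins, 1.89 for cytosolic ribosomal proteins, 1.61 for the respiratory chain and 1.81 over all genes.

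**Figure D1:**
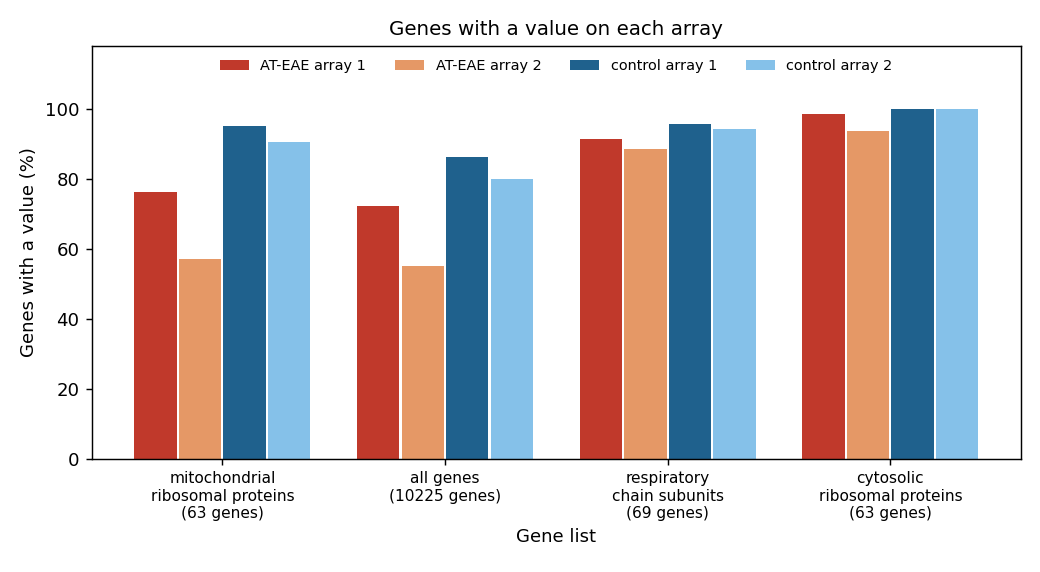
Share of genes with a value (vertical axis, percent) on each of the 4 arrays, for mitochondrial ribosomal proteins, all genes, respiratory chain subunits and cytosolic ribosomal proteins. Bars stand for single arrays, AT-EAE in red and orange and control in blue. The mitochondrial ribosomal proteins stood at 76.2% and 57.1% on the AT-EAE arrays, against 95.2% and 90.5% on the control arrays.

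The share also differed with the number of spots per gene. The 38 members with 1 spot averaged 56.6% ± 13.0 in AT-EAE and 88.2% ± 5.58 in control (SD, n = 2 arrays each). For all genes with 1 spot, the shares were 48.1% ± 13.2 in AT-EAE and 71.5% ± 6.30 in control (SD, n = 2 arrays each). The 25 members with several spots averaged 82.0% ± 14.1 in AT-EAE (SD, n = 2 arrays), and each of them had a value on both control arrays. All genes with several spots averaged 79.4% ± 11.4 in AT-EAE and 95.0% ± 2.39 in control (SD, n = 2 arrays each). With 1 spot, the members therefore had a larger share than all genes in both groups, by values that were not tested. With several spots the numbers were not matched, at 2.2 spots per gene for members and 2.64 for all genes.

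Each member with a value on an AT-EAE array also had one on both control arrays, 50 of 50 genes. Over all genes, 95.4% of the 7489 genes with a value on an AT-EAE array did so. A total of 34 members, 54.0%, had values on all 4 arrays, against 53.1% of all genes. Another 16 members had values on both control arrays and on 1 AT-EAE array. In 14 of these the value was on AT-EAE array 1, while Mrps23 and the pseudogene Mrpl23-ps1 had it on AT-EAE array 2. Mrpl23-ps1 is a near copy of Mrpl23, and the RNA of one may bind the spot of the other.

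There were 7 members with values on both control arrays and on neither AT-EAE array, which is 11.1% of the members, near the 9.14% of all genes with this pattern. They were Mrpl2, Mrpl34, Mrpl45, Mrpl53, Mrpl54, Mrpl57 and Mrpl58, each from the large subunit. Mrpl2 and Mrpl34 are homologues of bacterial proteins, Mrpl2 near the site of peptide bond formation. Mrpl45 lies at the tunnel exit and helps to hold the ribosome at the inner membrane. Mrpl58, also known as Ict1, releases peptides from stalled ribosomes. Their control ratios were small, between -0.25 (Mrpl34 on control array 1) and 0.39 (Mrpl57 on control array 2). No member had the reverse pattern, which 0.127% of all genes had.

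Of the 6 members with less than that, Mrpl55, Mrps14 and Mrps35 had a value on control array 1 alone. Mrpl10, Mrpl44 and Mrps15 had none on any array. Each of these 6 genes was represented by a single spot. A missing value does not say that the gene was silent.

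**Figure D2:**
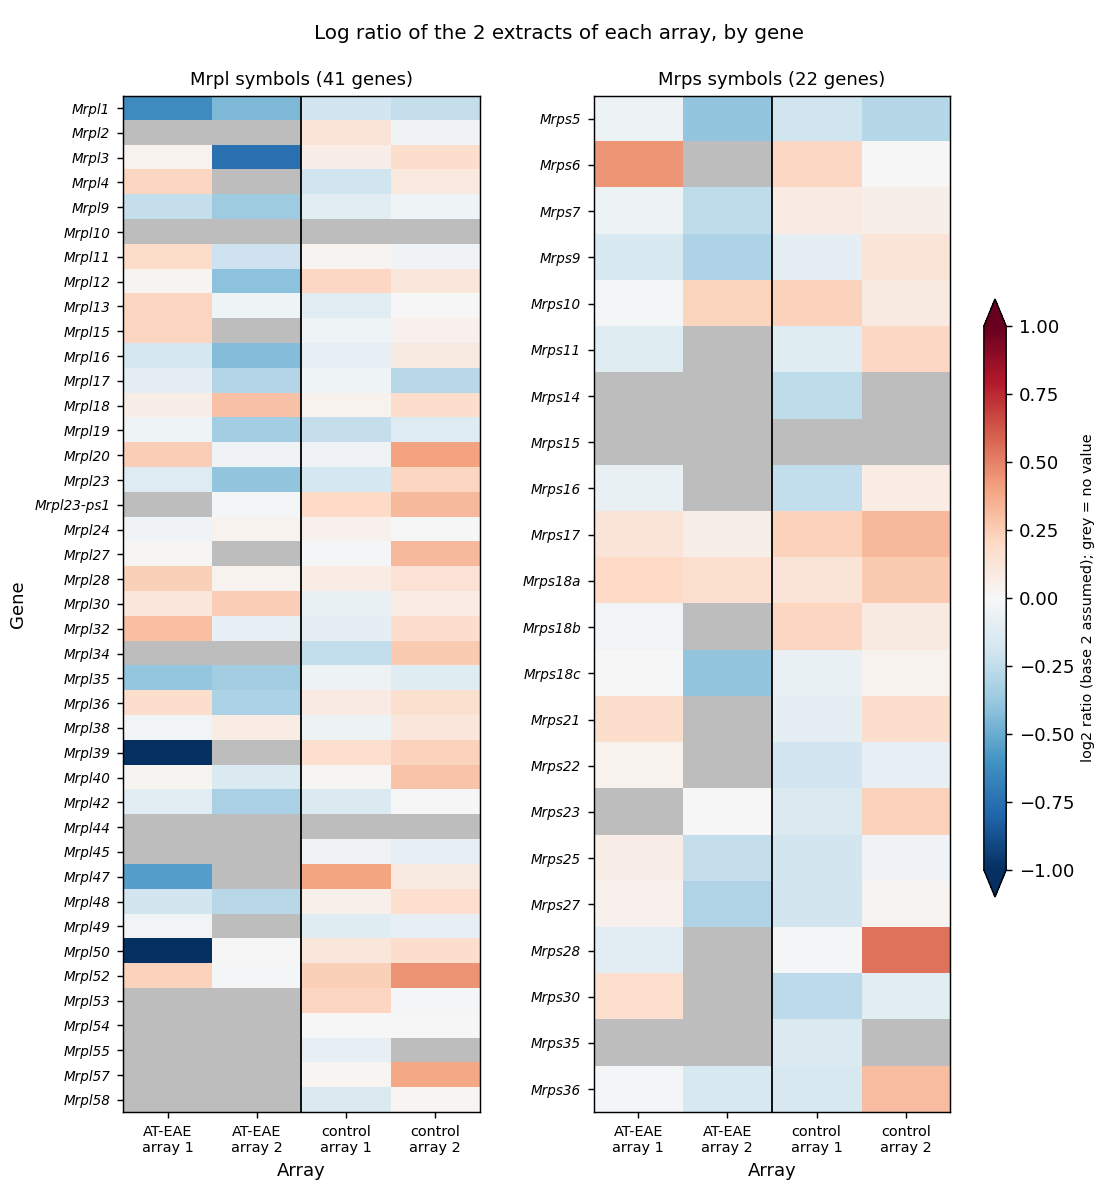
Log2 ratio of each member (rows, Mrpl symbols on the left and Mrps symbols on the right) on AT-EAE arrays 1 and 2 and control arrays 1 and 2 (columns). Colour runs from -1 (blue) to 1 (red), with Mrpl50 at -2.91 and Mrpl39 at -1.41 beyond the scale, and grey stands for no value. Grey cells are more frequent on the AT-EAE arrays, with 15 and 27 of 63 genes, than on the control arrays, with 3 and 6.

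By subunit, the Mrpl genes had values for 73.2% and 61.0% of 41 genes on AT-EAE arrays 1 and 2, against 95.1% and 92.7% on control arrays 1 and 2. The Mrps genes had values for 18 and 11 of 22 genes in AT-EAE, against 21 and 19 in control. Mrps genes thus had the larger share on AT-EAE array 1, with 81.8%, and the smaller one on AT-EAE array 2. The symbols do not give the place in every case, since Mrps30 and Mrps18a are part of the large subunit and Mrps36 is now known as a component of the 2-oxoglutarate dehydrogenase complex. The 40 members with a bacterial homologue had values for 82.5% and 65.0% of genes in AT-EAE, against 95.0% and 90.0% in control. The 23 members without one had values for 65.2% and 43.5% in AT-EAE, against 95.7% and 91.3% in control. The classes were thus 17.3 and 21.5 percentage points apart on AT-EAE arrays 1 and 2, against -0.65 and -1.30 on control arrays 1 and 2, with 60 spots for 40 genes and 33 spots for 23 genes. This class list holds a misplaced pair, since Mrpl47 is the homologue of a bacterial protein and Mrpl55 is not. With these exchanged, a choice made after the data were seen, the gaps were 24.1 and 21.5 points in AT-EAE, against -0.65 and 5.54 points in control. The difference between classes was not tested.

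Next came the size of the ratios, the distance between the extracts that shared an array. Most members had small ratios. Ratios of at least 1 in absolute value, a 2-fold difference, were found for 2 members on AT-EAE array 1 and for none on the other 3 arrays. Of all genes with a value, 0.365% reached this on AT-EAE array 1 and 1.07% on array 2 of AT-EAE, against 0.136% on control array 1 and 0.391% on control array 2. A single array gives no error for a gene, and these ratios have no replicate check.

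The 2 members were Mrpl50 and Mrpl39, both proteins of the large subunit without a bacterial homologue. Mrpl50 had ratios of -2.91 and 0.0044 on AT-EAE arrays 1 and 2, against 0.11 and 0.18 on control arrays 1 and 2. It was the second lowest of the 7398 genes with a value on AT-EAE array 1, a 7.53-fold difference between extracts if the base was 2. The other 3 arrays were near 0. The gene had 1 spot, so that a second spot could not be compared.

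Mrpl39, related in sequence to threonyl-tRNA synthetase, had a ratio of -1.41 on AT-EAE array 1 and no value on AT-EAE array 2, against 0.17 and 0.23 on control arrays 1 and 2. It ranked 11 from the lowest on AT-EAE array 1, a 2.66-fold difference if the base was 2. The ratio came from 1 of its 2 spots, which stood at 0.21 and 0.23 on control arrays 1 and 2, while the other spot had a value on control array 1 alone, at 0.13. Next to these, Mrpl1, the protein of the flexible stalk near the site where tRNAs leave, was at -0.63 and Mrpl47 at -0.55 on AT-EAE array 1.

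The members highest on AT-EAE array 1 were Mrps6 at 0.44, Mrpl32 at 0.30 and Mrpl20 at 0.25. On AT-EAE array 2 the lowest were Mrpl3 at -0.75, Mrpl1 at -0.45 and Mrpl16 at -0.43, and the highest Mrpl18 at 0.29, Mrpl30 at 0.25 and Mrps10 at 0.22. On control array 1 the lowest were Mrps30 at -0.26 and Mrps14 and Mrps16, each at -0.25, and the highest Mrpl47 at 0.40, Mrpl52 at 0.24 and Mrps17 at 0.23. These genes differ in role, since Mrpl3, Mrpl16, Mrpl18, Mrpl20, Mrps6, Mrps10, Mrps14, Mrps16 and Mrps17 have bacterial homologues and Mrpl52 is an addition of mitochondria. On control array 2 the lowest were Mrps5 at -0.29, Mrpl17 at -0.28 and Mrpl1 at -0.24, and the highest Mrps28 at 0.54, Mrpl52 at 0.45 and Mrpl20 at 0.40. Mrps28 was at -0.11 on AT-EAE array 1, had no value on AT-EAE array 2 and was at -0.01 on control array 1, so that its high ratio was seen on 1 array.

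Spots of the same gene, which may hold different clones, were compared within an array. The standard deviation between spots of a member was 0.24 and 0.42 on AT-EAE arrays 1 and 2, over 17 and 9 genes, against 0.19 and 0.23 on control arrays 1 and 2, over 21 and 20 genes. The standard deviation between genes was 0.51 and 0.23 on AT-EAE arrays 1 and 2, against 0.15 and 0.17 on control arrays 1 and 2. On 3 of the 4 arrays the members thus differed among themselves by less than the spots of 1 member did, although averaging over spots narrows the spread of genes. The exception was AT-EAE array 1, which held Mrpl50 and Mrpl39. This is not particular to the members. For all genes the standard deviation between spots was 0.243 and 0.361 on AT-EAE arrays 1 and 2, against 0.238 and 0.280 on control arrays 1 and 2. That between all genes was 0.229 and 0.360 on AT-EAE arrays 1 and 2, against 0.210 and 0.268 on control arrays 1 and 2.

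Mrps25 and Mrpl38 had spots that lay far apart. On AT-EAE array 2 the 3 spots of Mrps25 stood at 0.40, -0.97 and -0.14, and their mean of -0.24 hides the range. For Mrpl38, 2 spots had values on the AT-EAE arrays, 1 at 0.43 and 0.52 on arrays 1 and 2 and the other at -0.49 and -0.38, so that their difference repeated on both arrays. The mean ratios of Mrpl38, -0.03 and 0.07 on AT-EAE arrays 1 and 2, therefore do not stand for either spot.

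It was then asked whether the members lay to 1 side of the array's other genes, as respiratory chain and cytosolic ribosomal protein genes did on control array 2. Members leaned slightly up on control array 2 and down on AT-EAE array 2 and control array 1. With the array's median gene set to 0, their median ratio was -0.02 and -0.15 on AT-EAE arrays 1 and 2, against -0.04 on control array 1 and 0.09 on control array 2. On AT-EAE array 1, 23 of 48 members lay above the array median, and on array 2 of AT-EAE 14 of 36. On control array 1 it was 24 of 60, and 39 of 57 on control array 2. The medians of both groups had a standard deviation of 0.09 between arrays (n = 2 arrays each), larger than 3 of the 4 medians themselves.

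On control array 2, the members' median of 0.09 was below the 0.29 of cytosolic ribosomal proteins, where 58 of 63 genes lay above the array median, and the 0.31 of respiratory chain subunits, with 58 of 65. On AT-EAE array 2 cytosolic ribosomal proteins were at -0.09 with 16 of 59 genes above the array median, and respiratory chain subunits at 0.01 with 32 of 61. These differences between lists were not tested. The Mrpl and Mrps genes lay together on control array 2, at 0.09 each, and on AT-EAE array 1, at -0.02 each. On AT-EAE array 2 they were at -0.13 for Mrpl and -0.16 for Mrps genes. They lay further apart on control array 1, at -0.03 for Mrpl and -0.12 for Mrps genes.

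Cell type markers also had ratios away from 0 on these arrays. On AT-EAE array 2 both red blood cell genes were low, Hbb-b1 at -0.90 and Hba-a2 at -0.87, as was Mylpf of skeletal muscle at -0.52. The 3 neuron genes with a value lay below the array median, Nefl by almost nothing. There, 1 of 2 oligodendrocyte, 2 of 3 astrocyte and 1 of 2 microglia and macrophage genes lay above it. On AT-EAE array 1 the 4 microglia and macrophage genes lay below the array median, between -1.01 and -0.23. Both oligodendrocyte genes, both red blood cell genes and Mylpf did too, while 2 of 4 neuron and 2 of 4 astrocyte genes lay above it. On control array 1 Hbb-b1 was at 0.54 and Hba-a2 at 0.47, both above the array median. Also above it there were 3 of 5 neuron, 1 of 2 oligodendrocyte and 4 of 4 astrocyte genes. The same held for 2 of 3 microglia and macrophage and 1 of 2 skeletal muscle genes. On control array 2, 2 of 5 neuron genes lay above the array median, with ratios from -0.60 to 0.23. Both red blood cell genes lay above it there, Hbb-b1 at 0.23 and Hba-a2 at 0.28, and 3 of 4 astrocyte genes, which ran from -0.90 (Slc1a2) to 0.61 (Glul). Of the others on control array 2, 0 of 2 oligodendrocyte, 2 of 4 microglia and macrophage and 1 of 2 skeletal muscle genes lay above the array median. The part of cell composition in the members' ratios was not tested.

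**Figure D3:**
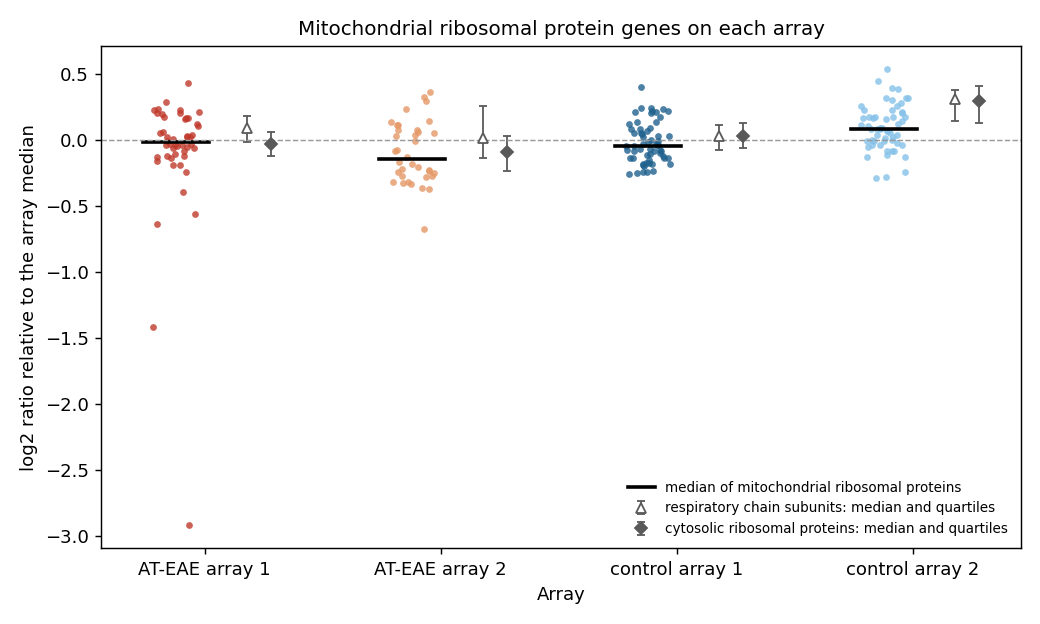
Log2 ratio of each member minus the array's median gene (vertical axis), by array (horizontal axis). Points are genes, black bars the members' medians, and grey symbols with bars the medians and quartiles of respiratory chain subunits and cytosolic ribosomal proteins. Medians of the members were -0.02, -0.15, -0.04 and 0.09 from left to right, and 2 points, Mrpl50 and Mrpl39, lie far below the others on AT-EAE array 1.

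Sizes were compared next, to see whether a pair of AT-EAE extracts differed more in the members than a pair of control extracts. Among the 34 members with values on all 4 arrays, the mean absolute ratio had a median of 0.19 over AT-EAE arrays and 0.11 over control arrays. Over the 5429 genes with values on all 4 arrays this median was 0.19 over AT-EAE arrays and 0.14 over control arrays. The AT-EAE value was the larger for 25 of 34 members, 73.5%, against 61.9% of all genes. The median AT-EAE minus control difference was 0.07 for members and 0.04 for all genes. Without AT-EAE array 2 the members' median was -0.01 and that of all genes -0.03, and without AT-EAE array 1 they were 0.16 and 0.08, so the direction rested on AT-EAE array 2.

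By symbol, the AT-EAE value was the larger for 20 of 24 Mrpl genes, with a median difference of 0.07, and for 5 of 10 Mrps genes, with a median difference of 0.01. The difference between the symbols was not tested. The largest mean absolute ratios over the 4 arrays were those of Mrpl50 at 0.80, Mrpl1 at 0.38, Mrpl3 at 0.25 and Mrpl52 and Mrps5, each at 0.23. Mrpl3, a core protein near the peptidyl transferase site, had ratios of 0.03 and -0.75 on AT-EAE arrays 1 and 2, against 0.07 and 0.17 on control arrays 1 and 2. A single spot carried both AT-EAE values of Mrpl3. Mrpl52 went the other way in size, with 0.23 and -0.02 on AT-EAE arrays 1 and 2, against 0.24 and 0.45 on control arrays 1 and 2. Cytosolic ribosomal proteins and respiratory chain subunits also had smaller ratios in AT-EAE, with median differences of -0.07 and -0.02.

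**Figure D4:**
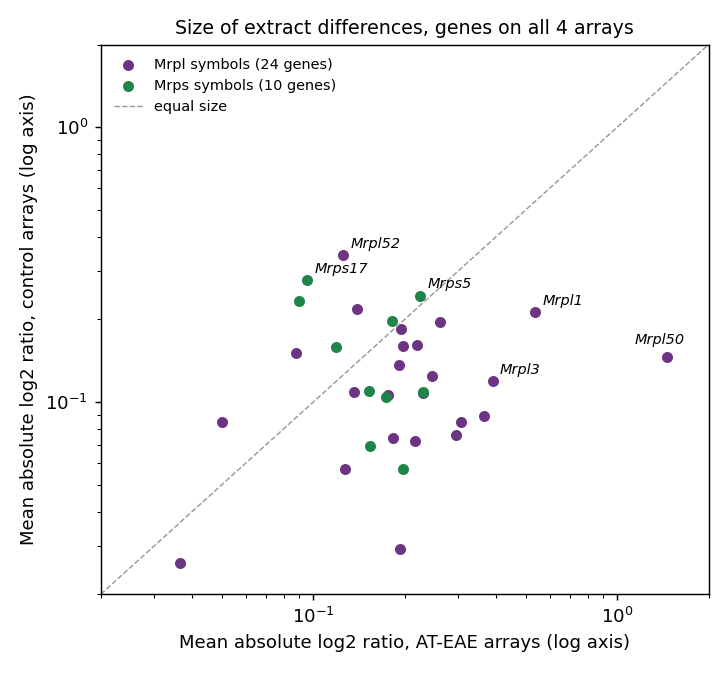
Mean absolute log2 ratio on the AT-EAE arrays (horizontal log axis) and on the control arrays (vertical log axis) for the 34 members with values on all 4 arrays. Points are genes and the dashed line marks equal size. Below the line lie 25 genes, Mrpl50 farthest to the right at 1.46 in AT-EAE and 0.15 in control.

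The last question was whether a member had a mean ratio away from 0 over the 4 arrays. Extract numbers are arbitrary and no extract was shared between arrays, so this mean gives no level of AT-EAE or control cord. A single array can move such a mean, so a call need not stand for a ratio that all 4 arrays share. Mrpl50 had a mean of -0.65, with -2.91 on AT-EAE array 1. Its ratios on AT-EAE array 2 and control arrays 1 and 2 were 0.0044, 0.11 and 0.18. With limma and Benjamini-Hochberg adjustment over the 5429 genes with values on all 4 arrays, none of the 34 members tested was called, and 0.0184% of all genes were. At an unadjusted p under 0.05 there were 4 of 34 members, 11.8%, against 11.2% of all genes. The lowest was Mrpl1, with a mean ratio of -0.38 ± 0.10 (SE from limma, 4 arrays) and an adjusted p of 0.230 in limma. The ratios of Mrpl1 were -0.63 and -0.45 on AT-EAE arrays 1 and 2, against -0.19 and -0.24 on control arrays 1 and 2, negative on 4 of 4 arrays. Its 2 spots were alike on AT-EAE array 1, at -0.62 and -0.64, but stood at -0.63 and 0.15 on control array 2. The other 3 were Mrpl35 at -0.23, Mrps5 at -0.23 and Mrpl52 at 0.23, with adjusted p of 0.421, 0.435 and 0.443 in limma. Spots of Mrpl35 differed in sign on both control arrays, at 0.26 and -0.51 on control array 2. Those of Mrps5 did on AT-EAE array 1, at 0.13 and -0.24. Without AT-EAE array 2, limma gave Mrpl50 an adjusted p of 4.75e-05. That fit has 1 AT-EAE array, at -2.91 for Mrpl50, which is assumed to vary like the 2 control arrays, at 0.11 and 0.18. It therefore shows no ratio shared by arrays. The lowest adjusted p of a member ran from 4.75e-05 to 0.827 over the limma alternatives.

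Signs repeated across arrays for 10 of 34 members, 29.4%, against 22.2% of all genes. Ratios were positive on all 4 arrays for Mrpl18, Mrpl28, Mrps17 and Mrps18a, and negative on all 4 for Mrpl1, Mrpl9, Mrpl17, Mrpl19, Mrpl35 and Mrps5. These signs are of means over spots. Spots of Mrpl18, Mrps17, Mrpl1, Mrpl17, Mrpl19, Mrpl35 and Mrps5 had opposite signs on some array. For example, spots of Mrpl17 stood at 0.06 and -0.15 on control array 1. Mrpl28, Mrps18a and Mrpl9 had a single spot with values. Mrps18a was at 0.20 and 0.16 on AT-EAE arrays 1 and 2, against 0.13 and 0.26 on control arrays 1 and 2, the narrowest range of the 4 positive genes. Across the 34 members, Spearman's rho between pairs of arrays ran from 0.29 to 0.51, and over the 5429 genes from 0.01 to 0.35. These arrays share clones, spot positions and the labelling scheme but no extract, and genes are not independent replicates. Pearson's r between the AT-EAE arrays was 0.04 with Mrpl50 and 0.48 without it, over 34 and 33 members.

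Other genes of mitochondrial protein synthesis were taken from a list of 66 symbols that holds further ribosome subunits, translation factors, assembly factors and tRNA synthetases. The symbol Ict1 on it is another name of the member Mrpl58 and matched no spot, so that 66 is not a count of other genes. Of the symbols, 38 were matched to spots. On AT-EAE arrays 1 and 2, 73.7% and 55.3% of these had a value, against 94.7% and 86.8% on control arrays 1 and 2. Over all genes the shares were 72.4% and 54.9% on AT-EAE arrays 1 and 2, against 86.2% and 80.1% on control arrays 1 and 2. Their median relative to the array was 0.09 and -0.13 on AT-EAE arrays 1 and 2, against 0.03 and 0.03 on control arrays 1 and 2. A ratio of at least 1 in absolute value was found for Noa1, a GTPase needed to assemble the small subunit, at 0.36 and -1.55 on AT-EAE arrays 1 and 2, against -0.03 and 0.13 on control arrays 1 and 2. Of the list, 20 genes had values on all 4 arrays and were tested by limma. None of them was called, against 0.0184% of the 5429 genes tested, and the other genes of the list were not tested.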

How the data were processed

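Values are the authors' deposited log ratios per spot, taken as log2 ratios of normalized channel signals. Per the labels, normalized green and red signals were compared on each slide. Base, sign, background correction, spot filter and software were not given in the sources used here. Values were signed with medians within 0.1 of 0.

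Spots with 1 gene (18511 of 28704, 937 had several and 9256 none) were averaged per gene and array. Symbols came from the platform table, and updating changed no member. limma 3.58.1 in R 4.3.3 tested the average of both group means against 0 for genes with values on all 4 arrays, with group as a term, at an adjusted p of 0.05. On simulated data with 5429 genes it called 100 of 100 genes shifted by 1 and 4 unshifted genes. Simulated noise was normal, with the same spread for every gene of an array. The shift was larger than the mean ratio of any member tested, the largest in size being -0.65 (Mrpl50). How often smaller ratios would be called was not simulated. Lists are described by counts and medians, with no test. Python 3.11.15 with pandas 2.3.3 was used.

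Extracts are separate pools, but arrays, 2 per group, limit the precision. Named members had an absolute ratio of at least 1, were the 3 highest or lowest of an array, had values in 1 group alone, or ranked in the top 5 by mean absolute ratio. Other genes named were picked after their values were seen. The members, lists and tests were chosen with earlier results of these data known. Protein sequences were not used here. Columns of no sample numbered 0.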

Additional observations from a re-analysis of the deposited data

How the results depend on the processing

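The share of members with a value was 92.0% and 72.0% on AT-EAE arrays 1 and 2, against 100% on both control arrays, among members with more than 1 spot, and 90.3% and 86.0% of single spots had a value on control arrays 1 and 2. Among members with values on all 4 arrays, 1 and not 2 had an absolute ratio of at least 1 on AT-EAE array 1. Leaving out arrays in turn gave a median AT-EAE minus control difference in mean absolute ratio from -0.0063 without AT-EAE array 2 to 0.16 without AT-EAE array 1. The members' median on AT-EAE array 1, -0.02, was 0.02 for members with 1 spot and 0.0070 relative to the array mean, so its sign was not settled, while the medians of the other 3 arrays kept their sign under the alternatives run. Members called by limma numbered 0 to 1 when arrays were left out in turn, with 3 to 169 genes called, against 1 with all arrays. Each of these fits has an arm of 1 array that is assumed to vary like the other group, and the 1 member, Mrpl50, rests on its single ratio of -2.91. The cause was not tested.

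Array numbers come from extract numbers and give no pairing. Deviations of same-numbered arrays had r = -0.287 over 5429 genes. With the number as a replicate block, limma called 1 member (Mrpl50) and 41 genes. Crossed numbers, chosen after seeing the data, gave 0 members and 1 gene. Single spots gave 3 calls and genes with a value on at least 1 array of each group 15, none of them members. Each group has 2 arrays, which limits the precision, and signals of single channels were not used here.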
